A study of Rattus norvegicus with 9 samples.

Results

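Bladder tumors were compared with the adjacent tissue of tumor-bearing rats: 3 arrays of tumor and 3 of adjacent tissue, chosen by their sample titles, of 9 arrays in all. The rats were female SD rats, 10 weeks old by the labels, given 20 mg/ml of MNU (N-methyl-N-nitrosourea, an alkylating carcinogen) into the bladder each week over 10 weeks, and both groups share this treatment. By histology the tumors were transitional cell carcinoma (BTCC). The series design gives the tumors and adjacent tissues as paired samples of 3 rats. The remaining 3 arrays, normal bladders that the same design text gives as coming from other rats, enter only as a reference level, although their labels repeat the MNU text. RNA was measured on Affymetrix rat arrays, and the values are log2 MAS 5.0 signals, in which a difference of 1 is a 2-fold change. For each of 14217 genes the probe set with the highest mean over the 9 arrays was used.

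The bladder is lined by urothelium, in which basal cells that make keratins 5 and 14 renew the layers above and umbrella cells at the surface make uroplakins and keratin 20. Beneath it lie a stroma of fibroblasts and vessels and a coat of smooth muscle. T and B lymphocytes enter inflamed or tumor-bearing bladder, and interferons made there switch on a common set of genes, among them chemokines that attract more T cells. The RNA came from whole pieces of tissue, so fewer cells of a type and less RNA per cell cannot be told apart.

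Tumor and adjacent arrays resembled each other about as much as arrays of 1 group did. The median absolute log2 difference over genes above a signal of 50 was 0.254 to 0.380 between tumors and 0.294 to 0.389 between adjacent samples. It was 0.265 to 0.284 between a tumor and the adjacent sample of the same number, and 0.236 to 0.412 between those of different numbers. Both groups lay farther from normal bladder, at 0.384 to 0.554 for tumors and 0.449 to 0.585 for adjacent tissue, while normal bladders differed from each other by 0.135 to 0.170. Tissue labelled as adjacent normal thus stood nearer to the tumors than to normal bladder on this measure. The 6 arrays had median log2 signals of 6.87 to 7.17. Adjacent sample 1 stood apart in the array's RNA quality controls, with a 3′ minus 5′ log2 difference for GAPDH of 1.97 against 0.316 to 0.776 on the other 5 arrays of the comparison. For actin it was 4.73 there against 2.86 to 3.29. The part of this array in the results was not tested, and counts without it are given beside the main results.

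**Figure D1:**
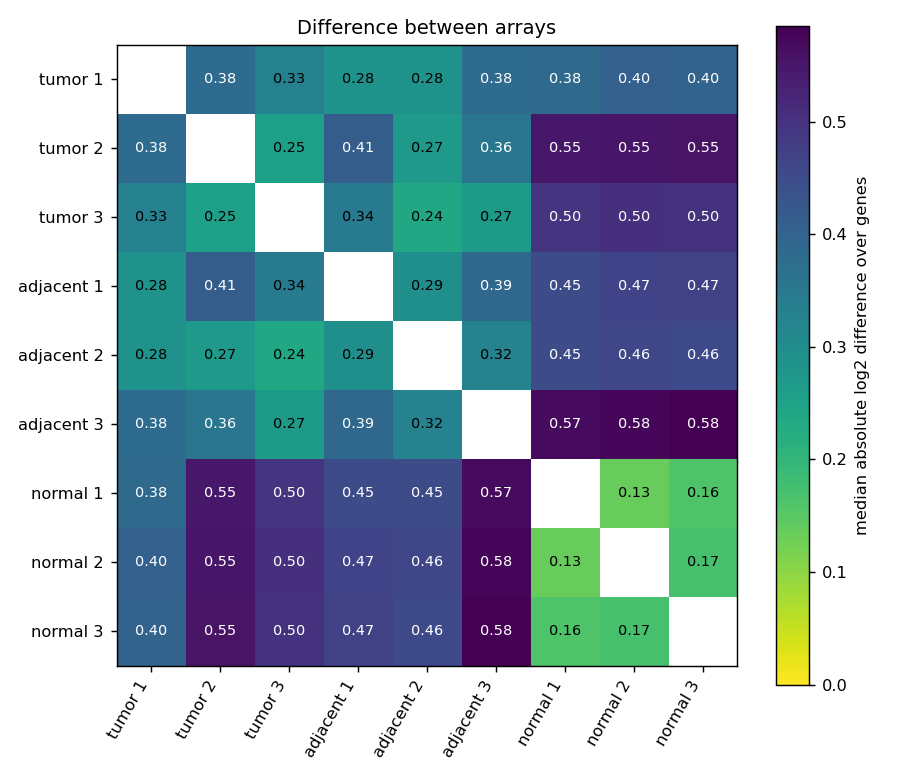
Median absolute log2 difference between each pair of the 9 arrays, over genes above a signal of 50; darker cells are larger differences, and both axes name the arrays by group and number. Tumor and adjacent arrays differ by 0.236 to 0.412, within or close to the ranges among tumors and among adjacent samples, and the 3 normal bladders form a separate block at 0.135 to 0.170.

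No gene passed the adjusted threshold between tumors and adjacent tissue. By limma, 0 of 31042 probe sets had an adjusted p under 0.05, which is 0% of those tested, and the smallest adjusted p was 0.9997, a lower limit that holds for each gene named here. At an unadjusted p under 0.05 there were 845 probe sets (2.72%), 478 (1.54%) higher and 367 (1.18%) lower in tumors. The 2.72% is below the share of 0.05 that would be expected if the groups did not differ. Counted by gene, 376 of 14217 (2.64%) had an unadjusted p under 0.05. With the replicate number as a block for the rats, 0 probe sets passed (smallest adjusted p = 0.445) and 1386 had an unadjusted p under 0.05. Differences are therefore described by their size, by their error and by whether the 3 arrays of a group lay clear of the other 3.

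Between tumors and adjacent tissue, 583 of 14217 genes (4.1%) were higher in every tumor than in every adjacent sample, and 421 (2.96%) were lower, 1004 (7.06%) in all. In 63 of these (0.443%) the mean was at least 2-fold higher in tumors, and in 34 (0.239%) at least 2-fold lower, with a mean signal of at least 50 in the higher group. If the groups did not differ, a share of 0.1 of genes would be expected to lie apart in either direction. This is the smallest two-sided p of an exact permutation test of 3 arrays against 3. The 7.06% seen is below that share, so the count alone does not set the tissues apart. Of all genes, 7532 (53%) had a higher mean in tumors and 6685 (47%) a lower one, and the median log2 difference was 0.02. The middle 90% of genes lay between -0.91 and 0.96, and 1277 genes (8.98%) differed by at least 1 in either direction. Compared within same-numbered pairs, 2149 genes (15.1%) were higher in the tumor of all 3 pairs and 1631 (11.5%) were lower. Without adjacent sample 1 the groups did not overlap in 1197 genes that were higher and 904 that were lower, and without tumor 1 in 1812 and 1531. Both counts are larger partly because 2 arrays against 3 overlap less often by construction.

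Genes of T and cytotoxic lymphocytes were lower in the tumors than in the tissue beside them. Of 26 measured members of that list, 10 (38.5%) lay lower in each tumor than in each adjacent sample and 0 higher, against 2.96% and 4.1% of all genes. The median log2 difference over the list was -0.83, and 23 of the 26 had a lower mean in tumors. Within pairs the list's median was -0.26, -1.06 and -0.69 for numbers 1, 2 and 3. Leaving out each array in turn left 10 to 15 members apart (12 without adjacent sample 1) and a median of -0.94 to -0.64. Such a count cannot fall when an array is left out, and over all genes the lower count rose from 421 to between 755 and 1531. The summed signal of the list was 140%, 88.2% and 108% of the normal bladder level in tumors 1, 2 and 3, and 167%, 178% and 161% in adjacent samples 1, 2 and 3.

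The CD3 chains, which carry the signal of the T cell receptor into the cell, were among these 10 genes. Cd3d had log2 signals of 6.69, 4.98 and 6.31 in the tumors and 7.66, 7.21 and 7.30 in adjacent samples. All adjacent values were above all tumor values, with tumor 2 the lowest, and the difference was -1.40 (SE 0.48). Cd3e had 4.29, 4.34 and 4.87 in tumors and 5.46, 6.303 and 6.16 in adjacent tissue, so the tumors lay under the signal of 50 (log2 5.64) below which MAS 5.0 values scatter widely. Its mean in adjacent tissue was 1.26-fold above that level, and so at least 1.26-fold above the tumors. Adjacent sample 1 lay under a signal of 50 too. Cd3g stood at 8.07, 7.07 and 7.55 against 8.72, 8.66 and 8.09 (difference -0.92, SE 0.32), and its groups were separated by a narrow gap between tumor 1 and adjacent sample 3.

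The kinases and adaptors below the receptor showed the same order. Lck, the kinase that first phosphorylates the CD3 chains, had log2 signals of 8.42, 8.44 and 8.27 in tumors and 8.94, 8.66 and 8.63 in adjacent tissue (difference -0.37, SE 0.20). Lat, the scaffold that the next kinase phosphorylates, had 6.94, 6.65 and 6.62 against 7.22, 7.76 and 7.08 (difference -0.61, SE 0.30). Zap70, that next kinase, had 6.78, 2.62 and 6.09 against 7.02, 7.26 and 7.16. Its difference of -1.98 (SE 0.99) came mostly from tumor 2, since tumor 1 lay only just under the adjacent samples. Ctla4, an inhibitory receptor of activated T cells, was at 4.67, 4.57 and 4.97 against 5.67, 5.73 and 5.82, which puts all 3 tumors under the signal of 50 and all 3 adjacent samples just above it. Of the granzymes of killer cells, Gzma was dim on all 6 arrays, so its place among the 10 rests on signals under 50, and Gzmb was dim in the tumors and in adjacent sample 1 and highest, at 7.02, in adjacent sample 3.

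Not every T cell gene followed this order. The coreceptor genes Cd4, Cd8a and Cd8b overlapped between the groups, with differences of 0.98 (SE 0.88), -0.02 (SE 0.71) and 0.60 (SE 0.70). Cd4 was dim in 5 of the 6 samples, and Cd8a was highest in tumor 1 (7.21) and adjacent sample 2 (7.001). Fyb1, an adaptor of T cells, and Ptpn22, a phosphatase that restrains their receptor, are outside the list and were picked out after their values were seen. Fyb1 stood at 8.14, 7.44 and 7.91 in tumors against 8.68, 8.77 and 9.11, a difference of -1.02 (SE 0.26). Ptpn22 stood at 5.90, 4.68 and 5.18 against 7.27, 6.52 and 6.16, a difference of -1.40 (SE 0.48).

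Among plasma cell and B cell genes, Mzb1 and Ms4a1 were lower in every tumor, while most of the list overlapped. Mzb1, a chaperone of antibody-secreting cells, had log2 signals of 5.14, 3.17 and 5.88 in tumors and 9.33, 7.51 and 6.23 in adjacent tissue, with 4.88 as the mean of normal bladder. The groups did not overlap, but the gap between tumor 3 and adjacent sample 3 was small, and the difference of -2.96 (SE 0.93) rested on pairs 1 and 2. Jchain, which links IgA and IgM subunits, had 6.49, 6.19 and 8.25 against 12.31, 8.81 and 7.86, and here tumor 3 exceeded adjacent sample 3. Ms4a1, which encodes the B cell surface protein CD20, had 3.55, 1.98 and 1.78 against 6.22, 5.31 and 5.20, lower in each tumor but with only adjacent sample 1 above a signal of 50. Of 12 measured B and plasma cell genes, 2 (16.7%) were lower without overlap, against 2.96% of all genes, and 1 (8.33%), Sdc1, was higher, against 4.1%. A higher mean in tumors was found in 4 of the 12, among them Fcrla, a B cell Fc receptor-like protein (difference 0.46), and Cr2, a complement receptor of B cells (difference 0.44, dim on all 6 arrays), whose groups overlapped. Sdc1 encodes a syndecan that epithelial cells make as well, and it stood at 13.34 to 14.03 on all 6 arrays. The list's median was -0.66, within pairs -1.55, -0.33 and -0.03, and -0.13 without adjacent sample 1.

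Interferon response genes were lower in tumors on average, most of all in the second pair. Of 37 measured members, 6 (16.2%) were lower without overlap and 0 higher, against 2.96% and 4.1% of all genes. A lower mean in tumors was found in 32, against 47% of all genes, and 14 were lower in all 3 pairs, against 11.5%. The median log2 difference was -0.66, and within pairs -0.02, -1.26 and -0.37. The count without overlap was 6 to 13 when arrays were left out in turn, and by construction it could not fall. It was 10 without tumor 1, 12 without tumor 2, 9 without adjacent sample 1 and 13 without adjacent sample 3. Over all genes the lower count rose as well, from 421 to between 755 and 1531. The list's summed signal was 105%, 81.0% and 70.8% of the normal level in tumors and 91.2%, 222% and 92.7% in adjacent tissue. Adjacent sample 2 was thus far above the other 5 arrays, which overlapped, and without it the median was -0.22.

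The promoters of Cxcl10, Gbp2 and Gbp7 are shown because these genes lay lower in every tumor and their windows hold the core letters of an interferon response element. They were chosen for that match after their values were seen, and Gbp7 is no member of the interferon list. The sequences are the 250 bases before the RefSeq start on the GRCr8 assembly, written 5′ to 3′ along the gene, for Cxcl10 (chr14:15988816-15989065), Gbp2 (chr2:234005477-234005726) and Gbp7 (chr2:233948639-233948888). Capitals mark the core of the interferon-stimulated response element, searched on both strands as GAAA, any 2 bases and GAAA again.
Cxcl10: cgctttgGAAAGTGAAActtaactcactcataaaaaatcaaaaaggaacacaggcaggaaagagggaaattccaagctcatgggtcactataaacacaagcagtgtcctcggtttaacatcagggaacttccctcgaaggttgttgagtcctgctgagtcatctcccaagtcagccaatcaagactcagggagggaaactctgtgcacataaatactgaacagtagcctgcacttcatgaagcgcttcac
Gbp2: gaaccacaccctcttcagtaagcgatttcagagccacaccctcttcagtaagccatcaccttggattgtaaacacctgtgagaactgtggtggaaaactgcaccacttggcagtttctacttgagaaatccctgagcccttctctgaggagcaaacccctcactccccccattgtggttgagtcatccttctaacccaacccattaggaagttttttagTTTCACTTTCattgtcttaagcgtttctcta
Gbp7: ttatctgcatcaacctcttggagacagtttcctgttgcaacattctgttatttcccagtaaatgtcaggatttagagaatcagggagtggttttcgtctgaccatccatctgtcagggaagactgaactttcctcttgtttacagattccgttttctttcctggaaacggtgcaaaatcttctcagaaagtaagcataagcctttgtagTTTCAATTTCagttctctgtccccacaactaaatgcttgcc
The match begins 243 bases before the start in Cxcl10, 31 in Gbp2 and 41 in Gbp7. Of all 27457 RefSeq promoters of this length, 902 (3.29%) hold these letters, as do 18 of the 26 interferon list members with a promoter entry (69.2%). Of the 6 list members lower in every tumor, 4 have a promoter entry, and 2 of these 4 hold the letters (Cxcl10 and Gbp2) while Cxcl11 and Irf8 do not. The other members are Usp18 and Ifitm1. The interferon-gamma activated site, searched as TTCNNNGAA, is in 2066 promoters (7.52%) and in 10 of those 26 (38.5%), and in 2 of the 4 lower in every tumor, Cxcl11 and Irf8. Such matches describe the sequence only.

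Cxcl11 and Cxcl10 encode chemokines that attract activated T cells through the receptor CXCR3. Cxcl11 had log2 signals of 6.77, 5.995 and 6.22 in tumors 1 to 3 and 7.83, 8.42 and 8.85 in adjacent samples 1 to 3. The lowest adjacent sample lay more than 1 unit above the highest tumor. Its mean was 6.33 ± 0.40 in tumors and 8.36 ± 0.51 in adjacent tissue (SD, n = 3 each), 4.10-fold lower (difference -2.04, SE 0.36), and 5.34 in normal bladder. Cxcl10 had 7.57, 7.03 and 7.498 against 8.39, 10.36 and 8.13, with adjacent sample 2 well above the rest. The difference was -1.59 (SE 0.56), and -0.89 at its smallest when 1 array was left out. Ccl11, an eosinophil attractant of stromal cells, had 8.66, 4.30 and 8.13 against 11.31, 10.35 and 9.29, the largest lower difference of the named genes at -3.29 (SE 1.10). Tumor 2, where fibroblast transcripts were also lowest, set much of its size. Over 31 measured chemokines, these 3 (9.68%) were lower without overlap and 0 higher, against 2.96% and 4.1% of all genes, and the median was -0.42 (-0.72 without adjacent sample 1 and -0.26 without adjacent sample 3).

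The guanylate-binding proteins are interferon-induced GTPases that act against intracellular microbes. Gbp2 had log2 signals of 9.28, 8.61 and 8.76 in tumors and 9.78, 10.64 and 9.98 in adjacent tissue (difference -1.25, SE 0.29). Gbp7 had 9.87, 8.66 and 8.66 against 11.06, 11.02 and 10.10 (difference -1.67, SE 0.40, 3.18-fold lower). In both, tumor 1 was the highest tumor and the groups did not overlap. Irf8, a transcription factor of myeloid and lymphoid cells, had 9.77, 9.48 and 9.93 against 10.02, 10.34 and 10.16, a difference of -0.45 (SE 0.19). Many classical members of the response overlapped: Mx1, an antiviral GTPase, was at 11.73 in adjacent sample 2 and at 7.18 to 8.98 on the other 5 arrays, and Isg15, a ubiquitin-like modifier, was at 12.71 there and at 8.99 to 10.72 elsewhere. Rsad2, the antiviral protein viperin, overlapped between the groups but was lower in the tumor of every pair, by 1.57, 1.66 and 1.53.

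Genes of antigen presentation showed small differences in the same direction. RT1-Bb and RT1-Da encode chains of the class II molecules that present peptides to helper T cells. RT1-Bb had log2 signals of 9.96, 10.50 and 9.82 in tumors and 10.60, 11.25 and 10.51 in adjacent tissue (difference -0.69, SE 0.27), against 4.17 in normal bladder. RT1-Da had 12.68, 12.38 and 12.74 against 13.03, 13.04 and 13.15 (difference -0.48, SE 0.16). Both were lower in the tumor of each pair. The low normal level of RT1-Bb was not shared by other class II genes, with RT1-Da at 12.38, RT1-Ba at 11.60 and RT1-Db1 at 10.32 in normal bladder. RT1-Ba was itself low in both samples numbered 2, at 5.08 in the tumor and 6.31 in adjacent tissue. It stood at 11.43 to 12.55 on the other arrays of the comparison, and the cause was not tested. RT1-CE5, a class I gene of a family whose members are near-identical and may share probes, had 10.41, 11.07 and 10.65 against 11.14, 12.50 and 12.80 (difference -1.44, SE 0.42). Of 23 measured genes of this list 4 (17.4%) were lower without overlap and 0 higher, against 2.96% and 4.1% of all genes, and the median was -0.21. B2m, the invariant chain of class I molecules, overlapped at 14.20 to 14.68 on all 6 arrays.

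Myeloid markers overlapped between tumors and adjacent tissue for the most part. Neutrophil markers summed to 2125%, 8496% and 12510% of the normal level in tumors and 3675%, 3750% and 30400% in adjacent tissue, so both groups were far above normal bladder and adjacent sample 3 was the highest. The size of these percentages is uncertain, because the 4 markers summed to a signal of only 107 to 208 in normal bladders. S100a8, Csf3r and Mmp8 were dim there, at mean log2 signals of 4.83, 5.04 and 4.40. S100a8, a calcium-binding protein of neutrophils and stressed epithelium, had log2 signals of 10.22, 11.40 and 12.42 in tumors and 11.15, 10.75 and 14.29 in adjacent tissue. Of 24 measured macrophage and monocyte genes, 1 was higher without overlap (4.17%, near the 4.1% of all genes) and 2 lower (8.33%, against 2.96%). Cd68, a lysosomal protein of macrophages, had 9.92, 11.87 and 9.95 against 9.76, 9.76 and 9.69, and its difference of 0.84 (SE 0.49) came from tumor 2. Itgax, an integrin chain of dendritic cells and macrophages, had 9.002, 8.498 and 8.76 against 9.20, 9.004 and 10.18 (difference -0.71, SE 0.33), and tumor 1 lay just under adjacent sample 2.

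The named genes with the largest higher signal in tumors came from unrelated functions, and several were dim in adjacent tissue. Among those bright on all 6 arrays, Esm1, a proteoglycan secreted by endothelial tip cells, had log2 signals of 9.65, 10.96 and 8.58 in tumors and 8.37, 8.43 and 7.37 in adjacent tissue. The groups did not overlap, tumor 2 was the highest, and the mean was 3.19-fold higher (9.73 ± 1.19 against 8.06 ± 0.59, SD, n = 3 each, difference 1.67, SE 0.58). Apln, the ligand of the apelin receptor of new vessels, had 8.13, 9.23 and 7.64 against 7.54, 6.54 and 7.31 (difference 1.20, SE 0.46), again with tumor 2 highest. It was named through the list of angiogenic factors. Of 21 measured members there, Apln and Sema3a (9.52%) were higher without overlap and Vegfd (4.76%) lower, against 4.1% and 2.96% of all genes. Of 20 measured endothelial genes, Esm1 was higher and Flt4 lower (5% each). The endothelial markers Pecam1, Kdr and Vwf overlapped between the groups, and their summed signal was 161%, 192% and 121% of the normal level in tumors and 160%, 150% and 125% in adjacent tissue.

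Other genes by the same rule were Sgce, a sarcoglycan, with log2 signals of 8.32, 9.34 and 9.21 in tumors against 8.05, 7.96 and 6.38, and Hbb, described with the red blood cell genes. Sema3e, a secreted semaphorin that guides axons and vessels, had 8.01, 8.01 and 7.68 against 7.16, 5.58 and 4.87 (difference 2.03, SE 0.56). Its 3 tumors were close together while the adjacent samples spread over more than 2 units, 2 of them under a signal of 50. Cand2, which exchanges subunits of ubiquitin ligases, had 6.999, 7.79 and 7.26 against 5.73, 5.23 and 6.36 (difference 1.58, SE 0.41). Baalc, Ptger2, Actl7b and Fbxo10 had differences of 3.28 (SE 0.98), 2.51 (SE 0.91), 2.32 (SE 0.94) and 2.21 (SE 0.83), but each was under a signal of 50 in 2 adjacent samples, where small signals make large log2 differences. Ptger2 encodes a receptor of prostaglandin E and was at 5.91, 6.01 and 6.59 in tumors against 2.31, 2.84 and 5.81. Shank1, a scaffold of synapses, was dim in all adjacent samples and so at least 1.31-fold higher.

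**Figure D2:**
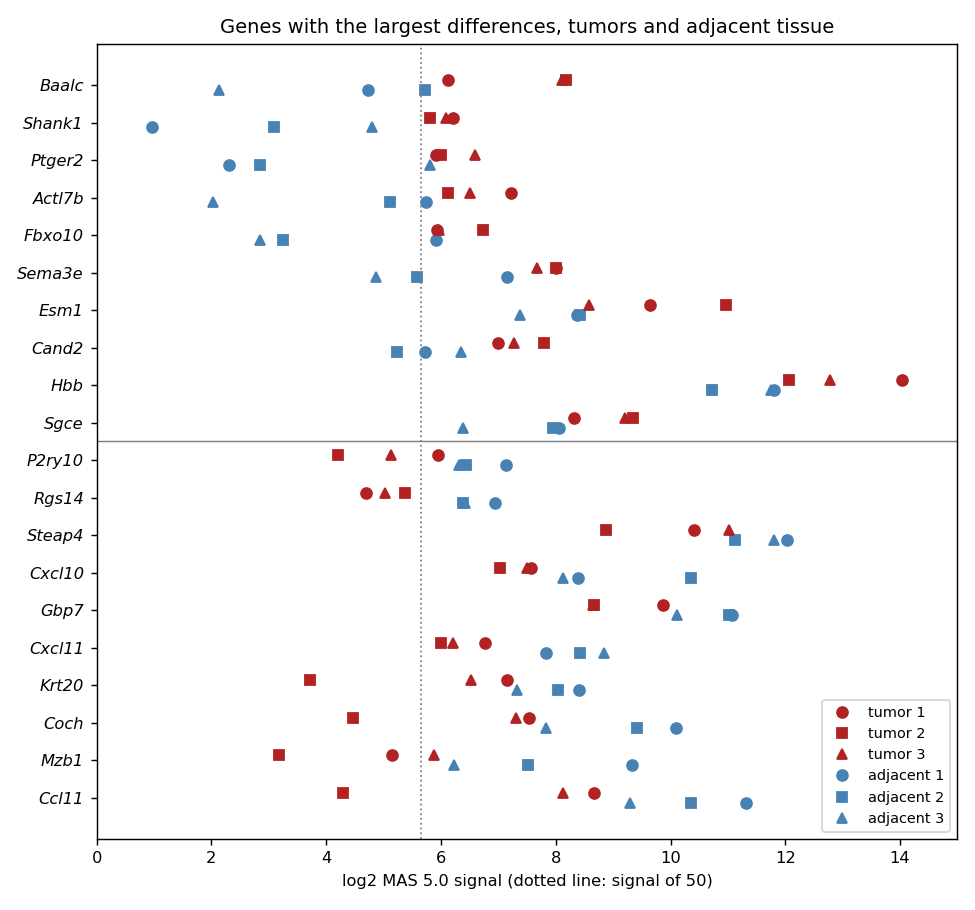
Log2 MAS 5.0 signal of the 10 genes with the largest higher (above the line) and the 10 with the largest lower (below the line) mean in tumors, among genes without overlap that are at least 2-fold apart, have an unadjusted limma p under 0.05 and lie above a signal of 50 on every array of the higher group. Red points are tumors, blue points adjacent samples, and the symbol gives the number; the dotted line is a signal of 50, left of which values are dim. All adjacent values of Shank1 and all tumor values of Rgs14 lie there, as do 1 or 2 values of the lower group of several other genes.

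Some brighter genes with tighter replicates fell outside those 20 and were picked out after their values were seen. Igfbp2, a binding protein of insulin-like growth factors, had log2 signals of 12.41, 13.14 and 13.03 in tumors and 11.38, 11.97 and 11.25 in adjacent tissue. All 3 tumors lay above all adjacent samples (difference 1.33, SE 0.27), and normal bladder was at 12.76, so it was the adjacent tissue that stood away from the normal level. Pdk4, a kinase that shuts off pyruvate dehydrogenase, followed the same order with 10.15, 11.16 and 10.77 against 9.17, 9.69 and 8.81 (difference 1.47, SE 0.32) and 10.14 in normal bladder. Porcn, the acyltransferase that prepares Wnt ligands for secretion, had 9.68, 10.45 and 10.31 against 8.89, 8.88 and 9.02 (difference 1.22, SE 0.23). Here the adjacent samples were at the normal level of 8.90 and the tumors above it. Lama5, a laminin chain of the epithelial basement membrane, had 11.20, 11.23 and 11.23 against 10.24, 10.22 and 10.61 (difference 0.87, SE 0.17). Nmu, which encodes the peptide neuromedin U, is not among these brighter genes but had the smallest unadjusted limma p of the genes apart by 2-fold. It stood at 5.91, 5.54 and 6.70 against 1.54, 2.47 and 2.85, at least 1.32-fold higher because all adjacent samples were dim.

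Genes of xenobiotic and antioxidant defence were slightly higher in tumors. Of 45 measured members, 4 (8.89%) were higher without overlap and 0 lower, against 4.1% and 2.96% of all genes. The median was 0.27, within pairs 0.35, 0.39 and 0.17, and 0.14 without tumor 2 or adjacent sample 1. Aldh3a1, an aldehyde dehydrogenase of epithelia, had log2 signals of 11.54, 12.82 and 11.65 in tumors and 9.80, 11.10 and 11.24 in adjacent tissue (difference 1.29, SE 0.47), with tumor 2 highest and adjacent sample 1 lowest. Gsta4, a glutathione transferase that clears lipid aldehydes, had 13.12, 13.51 and 12.93 against 11.98, 12.75 and 12.29 (difference 0.84, SE 0.24). Nqo1 and Gstp1, a quinone reductase and another glutathione transferase, were higher by 0.27 (SE 0.18) and 0.36 (SE 0.18).

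Glycolysis and hypoxia genes had 4 of 33 members (12.1%) higher without overlap and 0 lower, against 4.1% and 2.96% of all genes. Their median was 0.29, with 0.42 and 0.50 in pairs 1 and 2 and -0.15 in pair 3, so pair 3 ran the other way, and it was 0.10 without adjacent sample 2. Ldhb, a lactate dehydrogenase chain, had log2 signals of 12.40, 12.88 and 12.78 in tumors and 12.35, 12.21 and 11.55 in adjacent tissue (difference 0.65, SE 0.25). Gpi, the isomerase of glucose phosphate, had 11.75, 12.14 and 11.79 against 10.80, 11.55 and 11.69 (difference 0.55, SE 0.26), with adjacent sample 3 close under the tumors. Slc2a1, a glucose transporter, overlapped at 11.93, 12.85 and 11.93 against 11.28, 11.40 and 12.57. Of 46 respiratory chain and citric acid cycle genes, 40 had a higher mean in tumors, against 53% of all genes, and 1 (2.17%) was apart and higher, below the 4.1% of all genes, with a median of 0.13.

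Cell division genes were higher in most tumors than in their own adjacent tissue by small amounts. Of 49 measured genes of mitosis and chromosome segregation, 48 had a higher mean in tumors, against 53% of all genes, and 26 were higher in the tumor of all 3 pairs, against 15.1%, with 0 lower in all 3. Only 2 (4.08%) lay apart without regard to pairs, near the 4.1% of all genes. The median was 0.31 and within pairs 0.36, 0.56 and 0.23. It was 0.02 without adjacent sample 1, 0.66 without tumor 1, 0.18 without tumor 2, 0.13 without tumor 3 and 0.58 without adjacent sample 3, so its size depended on which array was left out. Each omission kept the other sample of the same number, so these medians also hold differences between numbers. Summed signal was 192%, 349% and 393% of the normal level in tumors and 179%, 284% and 309% in adjacent tissue, so samples numbered 2 and 3 had more of these transcripts than those numbered 1 in both tissues.

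Kif20a, a kinesin of the dividing cell's midzone, had log2 signals of 8.25, 8.61 and 8.77 in tumors and 7.48, 8.17 and 7.48 in adjacent tissue. The groups did not overlap, adjacent sample 2 came closest to the tumors, and the difference was 0.83 (SE 0.28). Cenpa, the histone of centromeres, had 6.48, 6.48 and 6.18 against 4.85, 5.89 and 6.04 (difference 0.79, SE 0.43), with adjacent sample 1 dim. Mki67, the proliferation marker Ki-67, overlapped at 9.10, 9.63 and 9.77 against 8.74, 9.41 and 9.68, although it was higher in the tumor of every pair, by 0.36, 0.22 and 0.10. DNA replication and nucleotide synthesis genes had a median of 0.16, with -0.21 in pair 1 and 0.38 and 0.26 in pairs 2 and 3. It was 0.40 without tumor 1, -0.03 without tumor 2, 0.06 without tumor 3 and 0.03 without adjacent sample 1. Of 41 measured, 2 (4.88%) were apart and higher, near the 4.1% of all genes: Rfc2 and Dnmt1, which load the replication clamp and copy DNA methylation, with differences of 0.45 (SE 0.19) and 0.23 (SE 0.15).

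Smooth muscle transcripts overlapped between tumors and adjacent tissue and spread widely within each group. Smooth muscle markers summed to 74.8%, 1.48% and 2.30% of the normal level in tumors 1, 2 and 3 and to 36.5%, 8.13% and 4.25% in adjacent samples 1, 2 and 3. Tumor 1 held the most and tumors 2 and 3 the least. Of 40 measured smooth muscle genes 0 lay apart in either direction, against 7.06% of all genes. The list's median of -0.09 was made of 0.85 in pair 1, -0.97 in pair 2 and -0.28 in pair 3. Myh11, the smooth muscle myosin heavy chain, had log2 signals of 13.80, 8.31 and 9.13 in tumors and 13.06, 11.32 and 9.63 in adjacent tissue. Des, the intermediate filament of muscle, had 14.02, 7.03 and 8.34 against 12.26, 9.95 and 9.45. In both the highest and the lowest value were tumors.

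Most fibroblast and matrix genes overlapped between the groups, and the summed fibroblast markers were lowest in tumor 2. Fibroblast markers summed to 77.4%, 8.21% and 19.1% of the normal level in tumors and 64.5%, 54.1% and 23.0% in adjacent tissue. The fibroblast list had a median of -0.65, with 0.59, -2.26 and -0.31 within pairs, and 0.07 without tumor 2. Dcn, the matrix proteoglycan decorin, had log2 signals of 13.73, 8.85 and 11.90 in tumors and 13.56, 13.63 and 12.57 in adjacent tissue, and tumor 2 alone lay more than 2 units below all others. Collagens and matrix glycoproteins had 0 of 47 members apart, against 7.06% of all genes, and within-pair medians of 0.71, -1.34 and -0.19. Fap, a protease of activated fibroblasts, ran against its list at 7.05, 7.14 and 6.79 against 6.63, 6.24 and 6.77, with a gap of only 0.02 between tumor 3 and adjacent sample 3. Skeletal muscle and Schwann cell lists were higher in tumor 1 than in its adjacent sample (within-pair medians of 0.66 and 1.25), and lower in the tumor of pairs 2 and 3 (-0.21 and -0.16, and -0.03 and -0.41). Whether these shifts in tissue makeup have a part in the lymphocyte and interferon differences was not tested.

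**Figure D3:**
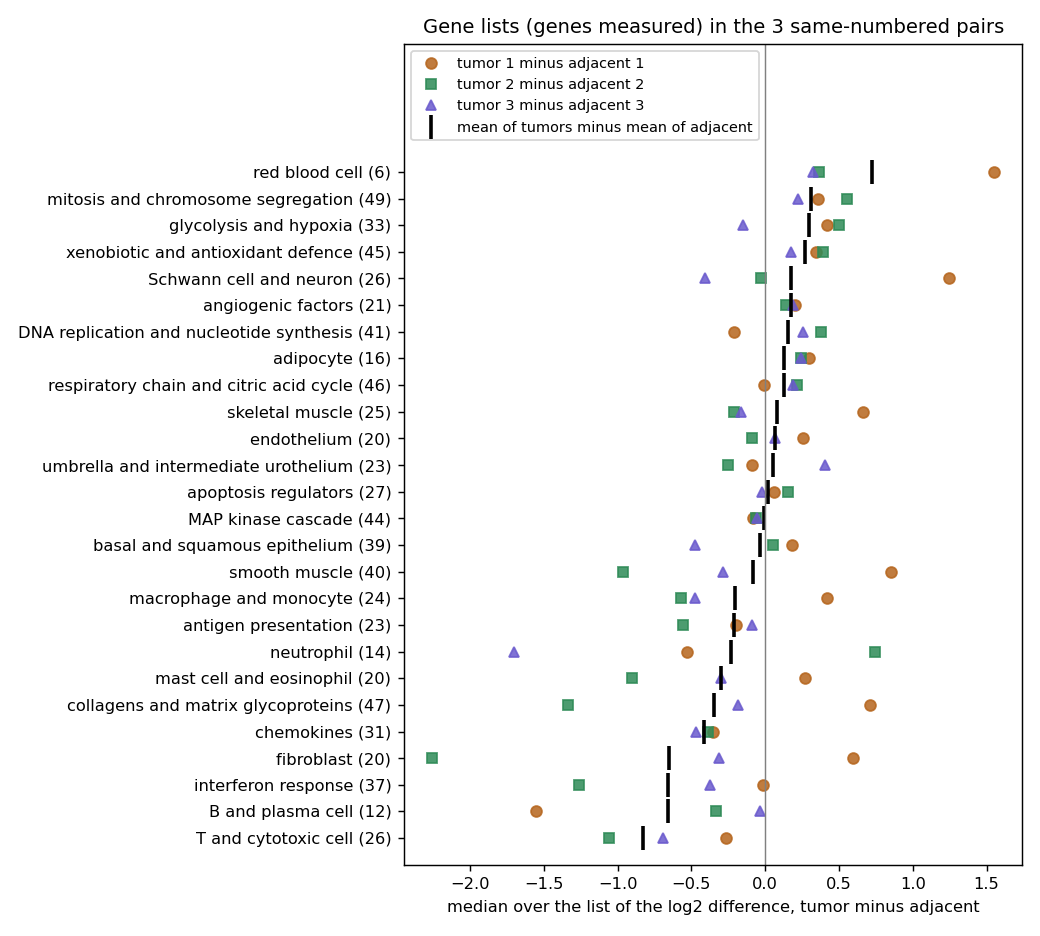
Median log2 difference, tumor minus adjacent, over the measured genes of 26 lists (number in brackets); colored symbols are the 3 same-numbered pairs and black bars the difference of group means. T and cytotoxic cell genes lie below 0 in all pairs (-0.26, -1.06 and -0.69) and mitosis genes above 0 (0.36, 0.56 and 0.23), whereas smooth muscle, fibroblast and collagen genes lie above 0 in pair 1 and below it in pairs 2 and 3.

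The red blood cell markers Hbb and Alas2 were higher in every tumor. Hbb, a beta globin whose family members are alike in sequence, had log2 signals of 14.03, 12.06 and 12.78 in tumors and 11.81, 10.72 and 11.75 in adjacent tissue, with 13.54 in normal bladder. The groups did not overlap and the difference was 1.53 (SE 0.51). Alas2, the heme synthesis enzyme of erythroid cells, had 7.37, 5.41 and 5.87 against 5.24, 4.73 and 5.32 (at least 1.49-fold higher, since adjacent tissue was dim). Together these markers summed to 138%, 35.3% and 57.8% of the normal level in tumors and 29.7%, 14.02% and 28.5% in adjacent tissue. Of 6 measured members of the list, these 2 (33.3%) were apart and higher, against 4.1% of all genes, and the median of 0.72 was 0.17 without tumor 1.

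The urothelial identity of tumor and adjacent tissue was alike by most markers. Basal markers summed to 788%, 1145% and 1044% of the normal level in tumors and 815%, 922% and 1332% in adjacent tissue, so the tissue beside the tumors carried as much of them. Krt14, a basal keratin, had log2 signals of 13.71, 14.14 and 13.97 against 13.43, 13.87 and 14.05, with 9.13 in normal bladder. Umbrella cell markers summed to 90.9%, 73.7% and 63.4% in tumors and 89.6%, 99.4% and 49.8% in adjacent tissue. Of 39 measured basal and squamous genes, 0 lay apart in either direction, against 7.06% of all genes, and the median was -0.04.

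Within the umbrella and intermediate cell list the keratins Krt20 and Krt7 differed in opposite directions. Krt20, the keratin of mature umbrella cells, had log2 signals of 7.15, 3.72 and 6.53 in tumors and 8.41, 8.04 and 7.32 in adjacent tissue, with 9.62 in normal bladder. All tumors lay below all adjacent samples and tumor 2 was the lowest (difference -2.12, SE 0.84, and -1.08 at its smallest when 1 array was left out). Krt7, a keratin of all simple and urothelial layers, had 14.28, 14.56 and 14.50 against 13.95, 14.20 and 13.90 (difference 0.43, SE 0.16). Upk3a, a uroplakin of the surface plaques, overlapped at 14.03, 13.88 and 13.81 against 13.76, 14.16 and 13.46. Of 23 measured members of this list, Krt7 was thus the only 1 apart and higher and Krt20 the only 1 apart and lower. These shares of 4.35% each are near the 4.1% and 2.96% of all genes.

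**Figure D4:**
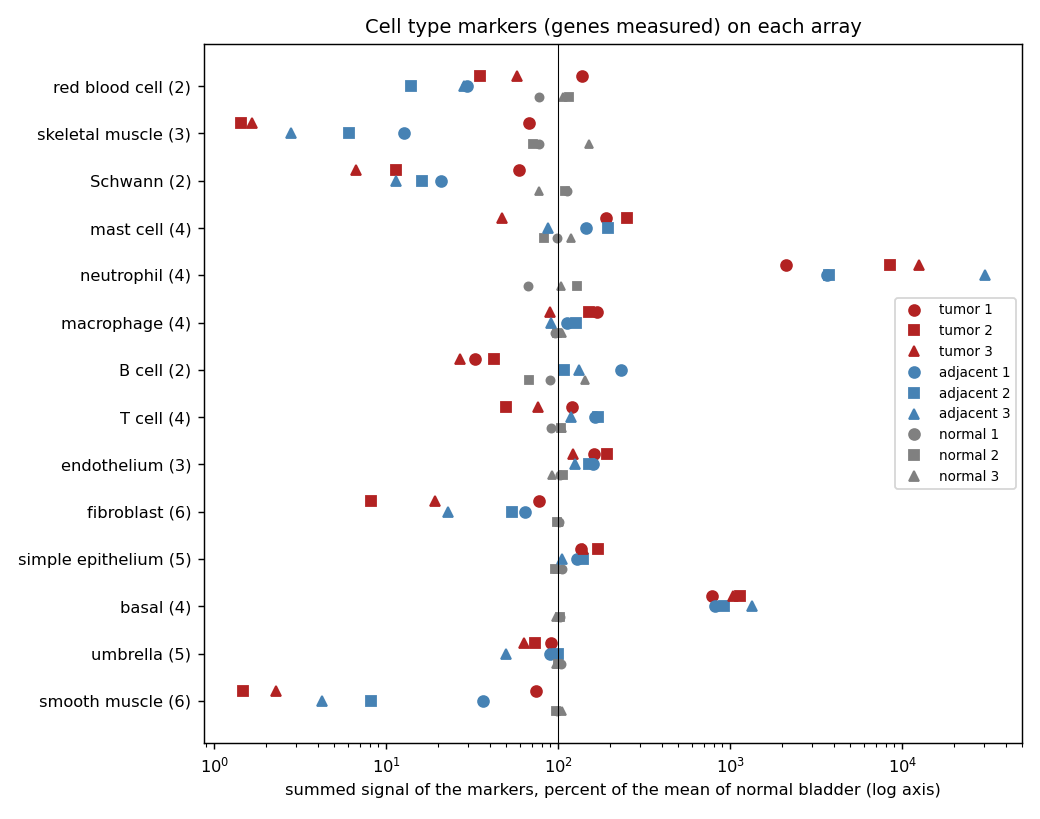
Summed signal of cell type markers (number measured in brackets) on each array as a percent of the mean of normal bladder, on a log axis; red points are tumors, blue points adjacent samples and grey points normal bladders, and the symbol gives the number. Smooth muscle spans 1.48% to 74.8% among tumors, and basal markers lie at 788% to 1332% in both tissues.

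Genes of MAP kinase signaling, which the study examined, had a median difference near 0 between tumors and adjacent tissue. Of 44 measured members of the cascade list, 2 (4.55%) were lower without overlap and 0 higher, against 2.96% and 4.1% of all genes. In all 3 pairs 9 members were lower in the tumor and 1 was higher, against 11.5% and 15.1% of all genes. The median was -0.01, and the within-pair medians were all close to 0. The 2 were Mapkapk5, a kinase downstream of p38 (difference -0.15, SE 0.16), and Rasgrp1, a Ras activator of lymphocytes that was dim in the tumors. Mapk9 encodes the kinase JNK2. On its brighter probe set it had log2 signals of 6.56, 5.94 and 6.28 in tumors and 5.99, 6.54 and 5.65 in adjacent tissue, which overlap (difference 0.20, SE 0.39, exact permutation test over the 6 arrays, two-sided p = 0.6). On the other probe set the difference was -0.48 (SE 0.45, exact permutation test, p = 0.3). The direction on the mean of both probe sets was -0.14, and the brighter one came to -0.01 without adjacent sample 3. No direction can therefore be given for Mapk9 between tumors and adjacent tissue. The paper reports lower Mapk9 in tumors than in normal tissue, which is another comparison. On the brighter probe set the mean was 7.72 in normal bladder, against 6.26 in tumors and 6.06 in adjacent tissue.

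Other genes of the JNK and p53 axis overlapped or lay close. Mapk8, which encodes JNK1, had log2 signals of 8.89, 8.48 and 8.41 in tumors and 9.25, 8.98 and 8.63 in adjacent tissue on its brightest probe set (difference -0.36, SE 0.24, exact permutation test, p = 0.2). The groups overlapped there, but the tumor was lower in each pair, by 0.36, 0.51 and 0.22. A second probe set had no overlap, at 7.81, 7.92 and 7.91 against 8.26, 7.95 and 8.03 (difference -0.20, exact permutation test, p = 0.1). The other probe sets of Mapk8 ran the other way, by 0.06 (exact permutation test, p = 0.6) and 0.18 (exact permutation test, p = 0.7). Mdm2, the ubiquitin ligase of p53, had 11.47, 11.73 and 11.49 against 11.24, 11.26 and 11.21 on its brightest probe set. All tumors lay above all adjacent samples there (difference 0.33, SE 0.15, exact permutation test, two-sided p = 0.1, the smallest that 3 arrays against 3 allow). Its other probe sets differed by 0.74 (exact permutation test, p = 0.1) and 0.10 (exact permutation test, p = 0.4). Bcl2, an inhibitor of apoptosis, was dim on all 6 arrays and overlapped (difference 0.22, SE 0.91, exact permutation test, p = 0.9), a direction that turned to -0.0028 with 50 added to the signal.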

How the data were processed

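RNA of 3 bladder tumors and 3 adjacent tissues was compared, with 3 normal bladders as a reference level. The authors labelled the RNA with the GeneChip 3′IVT Express Kit, read the arrays with Command Console Software 3.1 and normalized them in Gene Spring Software 11.0 by MAS 5.0. The values they deposited are log2 signals, whose trimmed mean linear signal (2% off each end) came to about 500 on every array, so no further scaling was done. After 57 array controls were left out, 31042 probe sets remained. The array annotation gives 1 gene for 20826 of them, several for 436 and none for 9780, and the last 2 kinds stand for no gene here.

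R 4.3.3 and limma 3.58.1 (lmFit, eBayes with a variance trend) were run on the 6 arrays without a block, with Benjamini-Hochberg adjustment over all probe sets. Signals under 50 were taken as dim. If the lower group was dim on all of its arrays, the fold is a lower bound, taken as the higher group's mean against 50. The named genes were the 10 largest differences each way among genes apart by 2-fold with an unadjusted p under 0.05 and every array of the higher group above 50, the largest members of each list, the cell type markers, and Mapk9, Mapk8, Mdm2 and Bcl2. Of 54 gene lists, written from general knowledge, 26 are described. The members and lists were chosen with earlier results of these data known, and list counts and medians are descriptions. The scripts were tested on simulated data. The number of arrays limits the precision.

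The series design names paired tissues of 3 rats, but the labels do not say that a number marks a rat. Deviations from the group means of same-numbered samples correlated at r = 0.508, 0.144 and 0.405 over 20030 probe sets above 50 (across probe sets, which are not independent), so the numbers were taken to pair the samples, although tumor 2 correlated more with adjacent sample 3 (r = 0.243). The samples are separate tissues by the labels. Promoters came from RefSeq (GRCr8).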

Additional observations from a re-analysis of the deposited data

How the results depend on the processing

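No alternative gave a probe set past the adjusted threshold: 0 passed under quantile normalization, centring on array medians, the filter at the 40th percentile, 50 added before log2, no variance trend, all 9 arrays in a fit, averaged probe sets per gene, the methods' t-test (1029 probe sets unadjusted), the replicate block and each omission of 1 array. With the replicate block for the same-numbered pairs, 0 passed and 1386 probe sets had an unadjusted p under 0.05, against 845 without it. That count was 1393 in the fit of 9 arrays, 377 after the filter and 389 over genes with probe sets averaged (fewer were tested in the last 2), and 582 to 1824 when arrays were left out, the highest without tumor 1. These counts at an unadjusted p, and those of lymphocyte and interferon genes, were added after seeing the data.

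Genes without overlap numbered 1118 to 1812 higher and 755 to 1531 lower when 1 array was left out. Those apart by 2-fold numbered 102 to 176 higher and 43 to 391 lower, again with the highest without tumor 1, and 17 and 13 with 50 added to the signal, which shrinks differences of dim genes. T cell genes lower without overlap numbered 10 to 15 and interferon genes 6 to 13 when 1 array was left out. Counts without overlap cannot fall under such omissions. Of the 24 named genes in this check, all but Mapk9, Mapk8, Mdm2 and Bcl2 were chosen for groups without overlap. Leaving out 1 array could not turn the direction of those chosen genes, so their values say little about stability. Among the 24 genes, 347 of 352 values kept their direction. The 5 that turned were Bcl2 with 50 added (-0.0028), without tumor 1 (-0.15) and without adjacent sample 3 (-0.67; range over single omissions -0.67 to 0.84), and Mapk9 with averaged probe sets (-0.14) and without adjacent sample 3 (-0.0070; range -0.0070 to 0.44), and the cause was not tested. Of 260 list medians, 42 moved by more than the SD of the list's medians over the 3 same-numbered pairs.

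With 3 arrays per group, no difference was detected at the adjusted threshold. The signal over background limits genes under 50, whose log2 differences are uncertain. The 3′ minus 5′ value of adjacent sample 1 differs from the rest.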
